A study of Homo sapiens with 6 samples.

Results

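The DNAJ or HSP40 family of co-chaperones, named for the bacterial chaperone DnaJ, was examined by RNA-seq in HEC-1-A, an established cell line from a human endometrial adenocarcinoma. Members were the rows whose gene symbol begins with DNAJA, DNAJB or DNAJC followed by a number, and 48 of the 23228 rows matched. Of these, 44 were protein-coding J-domain genes, with 4 in class A, 12 in class B and 28 in class C. The other 4 were the pseudogenes DNAJA1P5 and DNAJB3, the antisense row DNAJB8-AS1 and the read-through row DNAJC25-GNG10, and these are kept out of the class counts. The study examined the transcriptional response to SMIP34, a small-molecule inhibitor of the nuclear receptor coregulator PELP1. The 3 control libraries came from HEC-1-A cells that received vehicle according to the methods of the study, while their labels name only the growth medium. The 3 SMIP34 libraries came from the same line treated with SMIP34 at 20 µM for 24 h. No source used here says whether the libraries of a group came from separate cultures, so the p-values measure the spread between these samples, which may be technical, and all samples are of a single cell line.

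J-domain proteins set HSP70 chaperones to work. They bind unfolded or specific client proteins, hand them to HSP70 and, through the His-Pro-Asp motif of the J-domain, stimulate HSP70 to hydrolyse ATP and close on the client. Nucleotide exchange factors then reopen HSP70 for the next round. Class A members keep the J-domain, the glycine- and phenylalanine-rich linker and the zinc-binding region of bacterial DnaJ, class B members lack the zinc-binding region, and class C members share little more than the J-domain and serve specialised tasks such as mitochondrial import, vesicle uncoating, splicing or histone handling.

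Each library held between 19562711 and 22014835 counts on genes. The filter on low counts left 37 coding members, with 3 in class A, 9 in class B and 25 in class C. Levels are given in CPM, the counts of a gene relative to the library total scaled by the TMM method, and changes are log2 fold changes of SMIP34 against control from the quasi-likelihood test of edgeR, adjusted by the Benjamini-Hochberg method over the 13408 genes that were tested. A gene is said to have risen or fallen where its adjusted p-value was under 0.05. Control replicate 1 stood apart with 16881 genes that had a count, against 15965 to 16100 in the other libraries. All 6 epithelial markers were expressed, with control means from 209.6 CPM for CDH1 to 867 CPM for KRT18, and KRT8, KRT19 and PAX8 fell, with a list median log2 fold change of -0.06. Of the 6 markers of leukocytes, endothelium and fibroblasts, 5 had at most 7 counts in any library. The remaining marker, COL1A1, had 59, 59 and 65 counts in control and 92, 83 and 98 counts in SMIP34 libraries, and the part of these markers in the results was not tested. In bulk libraries, a change in the number of cells that carry a transcript and a change in its amount per cell cannot be told apart.

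Most members of class B rose, whereas few members of class C changed. Of the 9 class B members tested, 8 rose (88.9%) and 1 fell (11.1%), while 17.4% of all genes tested rose and 17.2% fell. In class A, 2 of the 3 members tested rose (66.7%). In class C, 2 of 25 rose (8.0%) and 3 fell (12%), and the 20 members that did not pass the test lay on both sides of 0, with 12 above and 8 below. The median log2 fold change was 0.11 in class A, 0.20 in class B and 0.04 in class C, beside a median of -0.0022 over all genes tested. Over the family, 12 of 37 members rose (32.4%) and 4 fell (10.8%), so 43.2% were called against 34.6% of all genes tested. The members were expressed above the typical gene, with median control levels of 111 CPM in class A, 57.4 CPM in class B and 43.7 CPM in class C against 31.2 CPM over all genes tested, and the part of this in the shares called was not tested. The log2 fold changes of the 37 members are shown in the plot of members by class.

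**Figure D1:**
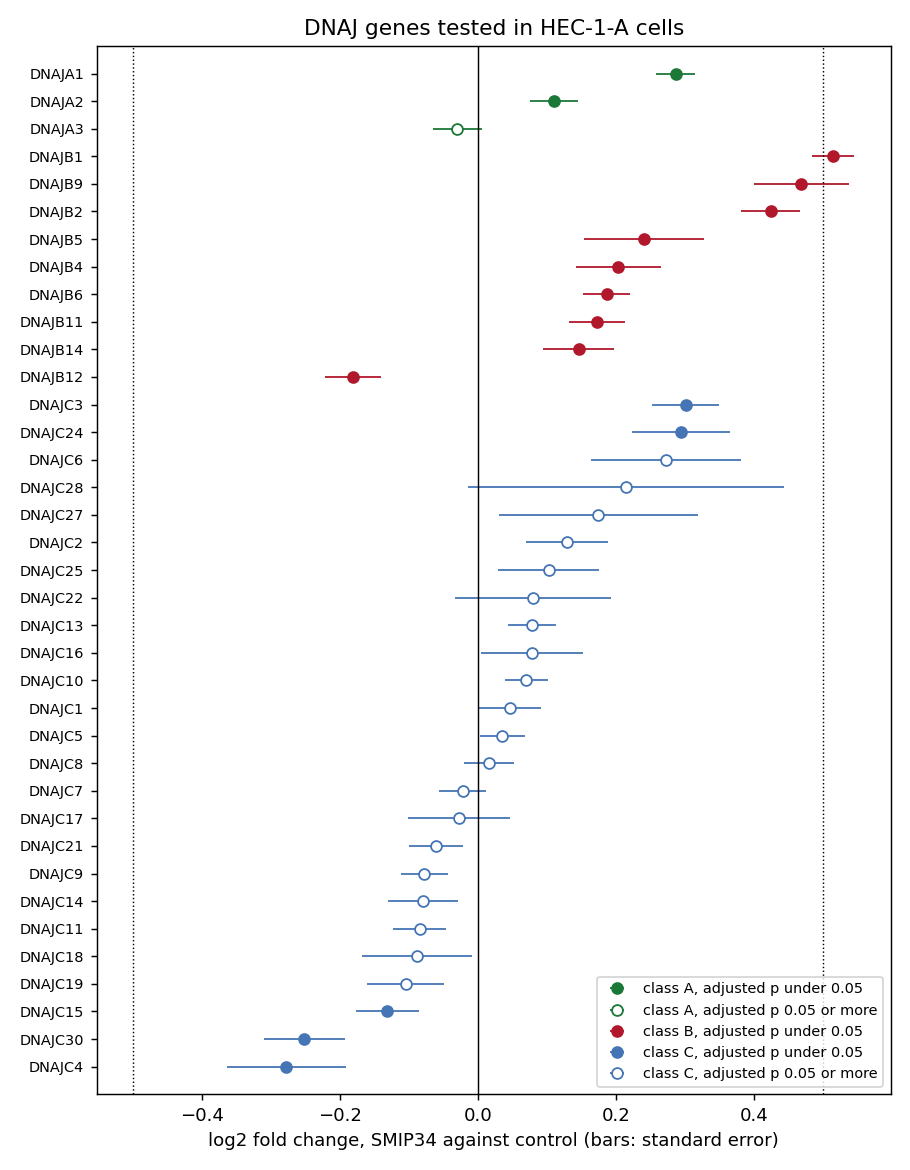
Log2 fold change of SMIP34 against control for the 37 coding DNAJ members tested, ordered within class A, B and C, with standard errors from edgeR as bars and filled points for members with an adjusted p-value under 0.05. Class B holds 8 filled points above 0 and 1 below, and class C holds 2 above and 3 below.

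The direction of the class B count did not rest on a single library, but its size varied. With 1 library left out, between 5 (without SMIP34 replicate 2) and 7 of the 9 class B members rose and DNAJB12 alone fell, while 13.9% of all genes rose without SMIP34 replicate 2. DESeq2 called 6 class B members higher, against 13.5% of all genes. Without control replicate 1, 7 class B and 4 class C members rose, against 15% of all genes. With scaling by library size only, 6 class C members rose and 2 fell (20.6% and 14.5% of all genes), and with offsets on exon length 3 rose and 3 fell (16.7% and 14.8%).

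In summed levels, classes A and B were higher in SMIP34 libraries. The difference came largely through DNAJA1 in class A, and through DNAJB1 together with other members in class B. Class B summed to 566 ± 12.4 CPM in control and 683 ± 6.16 CPM in SMIP34 libraries (SD, n = 3 per group), class A to 469.97 ± 7.59 and 533 ± 9.14 CPM, and class C to 1382 ± 16.3 and 1394 ± 20.9 CPM. The values of the groups did not overlap in classes A and B and overlapped in class C. DNAJA1 gave 57.98 of the 63.2 CPM difference in class A, and DNAJB1 gave 62.4 of the 116 CPM difference in class B. Without DNAJB1, class B summed to 421 ± 8.11 and 475 ± 4.80 CPM, still without overlap, and without DNAJA1, class A summed to 207 ± 3.02 and 212 ± 3.00 CPM. With all members, class B made up 23.4% ± 0.187 of the counts on the tested members in control and 26.2% ± 0.314 in SMIP34 libraries, class A went from 19.4% ± 0.105 to 20.4% ± 0.205, and class C from 57.2% ± 0.167 to 53.4% ± 0.178. An exact permutation test over 3 against 3 libraries cannot give a two-sided p-value below 0.1, so these sums are given without a test.

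**Figure D2:**
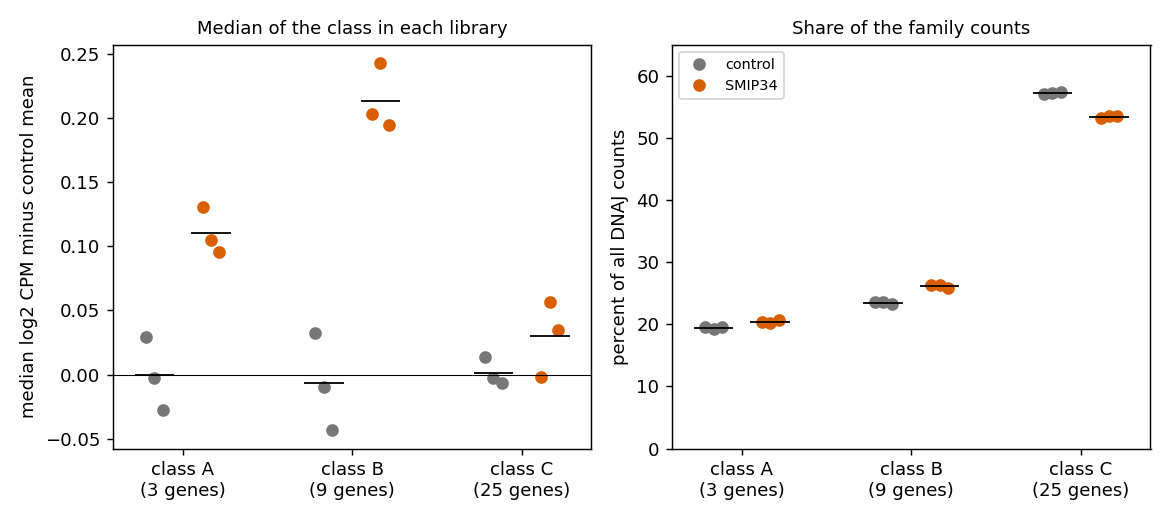
Median log2 level of the tested members of each class in each of the 6 libraries, relative to the control mean of each gene. Class B medians lie between -0.04 and 0.03 in control and between 0.19 and 0.24 in SMIP34 libraries, and class C medians lie between -0.01 and 0.06 throughout.

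DNAJB1, the founding human HSP40 and the classical heat-inducible co-chaperone of cytosolic HSP70, had the largest log2 fold change of the members in the reported fit and in all 15 alternatives. Its gene lies on the minus strand at chr19:14625582-14629201 (hg19). It had 149, 147 and 140.5 CPM in control replicates 1 to 3 and 207, 209 and 207 CPM in SMIP34 replicates 1 to 3. Every SMIP34 library lay well above every control library. The means were 145 ± 4.33 and 208 ± 1.41 CPM (SD, n = 3), a 1.43-fold increase with a log2 fold change of 0.52 (SE 0.031, adjusted p = 5.86e-13). It was the only member beyond an absolute log2 fold change of 0.5 with an adjusted p-value under 0.05, a limit that 3.31% of all genes tested passed in either direction and 1.44% as higher. That call was close to the limit, since the log2 fold change was 0.49 without control replicate 3. By size of change DNAJB1 ranked 698 among the 13408 genes tested, and by p-value it ranked 28.

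In class A, DNAJA1 and DNAJA2, the main cytosolic class A partners of HSP70, rose. DNAJA1 (chr9:33025209-33039062) had 269, 263 and 258 CPM in control and 315, 321 and 328 CPM in SMIP34 libraries, with no overlap. Its means of 263 ± 5.45 and 321 ± 6.42 CPM (SD, n = 3) gave a 1.22-fold increase (log2 fold change 0.29, SE 0.028, adjusted p = 1.09e-08). DNAJA2 (chr16:46989274-47007625) had 97.0, 94.9 and 93.3 CPM in control and 104, 102 and 102 CPM in SMIP34 libraries, a 1.08-fold increase that also showed no overlap (log2 fold change 0.11, SE 0.035, adjusted p = 0.014). This small increase lost its call without SMIP34 replicate 1 (adjusted p = 0.0647). DNAJA3, the mitochondrial class A member, had overlapping values, with means of 111 ± 2.36 and 109 ± 3.95 CPM (adjusted p = 0.556).

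DNAJB1 was also set against other members of the same library. The ratio of DNAJB1 to DNAJA1 counts was 0.553, 0.558 and 0.545 in control and 0.655, 0.653 and 0.632 in SMIP34 libraries, and the ratio of DNAJB1 to DNAJC7 went from 0.929, 0.922 and 0.920 to 1.40, 1.34 and 1.29. Neither ratio overlapped between the groups, and the two-sided exact permutation p-value was 0.1 for each, the smallest that this design allows. DNAJB1 did not overlap on its own and was chosen with earlier results known, so these p-values add no separate support. These ratios use no scaling between libraries.

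Heat shock genes are commonly controlled by heat shock factor, which binds inverted repeats of the unit GAA. The stretch of 250 bases before the annotated start is shown for the 3 tested members in which the windows searched held a pair of such units, GAANNTTC, which reads the same on both strands. All are from GRCh37 on the strand of the gene, 5′ to 3′: DNAJB1 from chr19:14629202-14629451 on the minus strand, DNAJA1 from chr9:33024959-33025208 and DNAJB6 from chr7:157129460-157129709, both on the plus strand. Capitals mark the paired units, and in DNAJB6 the longer run that contains one, made of GAA, TTC and GAA with any 2 bases between neighbours.
DNAJB1: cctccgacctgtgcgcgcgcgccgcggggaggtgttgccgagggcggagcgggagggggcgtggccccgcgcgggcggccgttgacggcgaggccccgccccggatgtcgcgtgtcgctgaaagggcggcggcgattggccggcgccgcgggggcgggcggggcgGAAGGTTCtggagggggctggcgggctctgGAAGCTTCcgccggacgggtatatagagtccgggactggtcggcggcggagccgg
DNAJA1: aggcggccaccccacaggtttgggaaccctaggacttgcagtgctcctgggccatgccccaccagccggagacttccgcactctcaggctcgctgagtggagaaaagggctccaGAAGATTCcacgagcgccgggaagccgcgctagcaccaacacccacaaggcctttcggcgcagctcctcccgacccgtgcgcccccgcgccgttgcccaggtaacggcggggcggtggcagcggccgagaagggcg
DNAJB6: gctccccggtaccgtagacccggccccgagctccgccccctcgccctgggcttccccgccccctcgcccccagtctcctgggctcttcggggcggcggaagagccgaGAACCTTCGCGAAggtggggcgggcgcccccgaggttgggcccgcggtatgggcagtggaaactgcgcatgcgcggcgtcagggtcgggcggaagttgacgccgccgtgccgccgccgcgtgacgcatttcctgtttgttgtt

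DNAJB1 held the paired unit at 85 to 78 and at 55 to 48 bases before its start, DNAJA1 at 136 to 129 bases and DNAJB6 at 143 to 136 bases. Windows of 250 bases before and 50 bases after the start held a paired unit in 6.1% of 22675 genes, in 4.8% of the 13249 tested genes with a window and in 3 of the 37 members. The longer run, searched on both strands, was present in 0.463% of all windows and in DNAJB6 alone among the members. The 3 members with GAANNTTC rose, but 9 of the 12 members that rose held no GAANNTTC in this window, DNAJB4 among them. The pair in the other order, TTCNNGAA, was not searched by itself, and only the outermost annotated start of each gene was used. These counts therefore do not show that a gene lacks paired units. Over all tested genes with a window, 17% of the 636 with a paired unit rose, against 17.6% of those without one. A match is a description of the letters and says nothing of binding in these cells.

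Class B members of the cytosol and nucleus also rose. DNAJB2, which carries ubiquitin-interacting motifs and delivers clients to the proteasome, had 56.2, 61.1 and 54.9 CPM in control and 76.2, 76.9 and 78.2 CPM in SMIP34 libraries. The groups did not overlap, and the level rose 1.34-fold (log2 fold change 0.42, SE 0.043, adjusted p = 1.47e-08; chr2:220144040-220151622). DNAJB4, a cytosolic relative of DNAJB1, had 23.6, 23.5 and 22.3 CPM in control and 27.2, 27.4 and 25.3 CPM in SMIP34 libraries (log2 fold change 0.20, SE 0.061, adjusted p = 0.0112; chr1:78470636-78482995). The increase of DNAJB4 lost its call without SMIP34 replicate 2 (adjusted p = 0.053). DNAJB6, a suppressor of protein aggregation, rose from 100.5 ± 1.96 to 114 ± 1.53 CPM (log2 fold change 0.19, adjusted p = 0.000101). DNAJB5, a further relative of DNAJB1, rose from 10.7 ± 0.530 to 12.7 ± 0.384 CPM (log2 fold change 0.24, adjusted p = 0.033), a call that was lost under 6 of 15 alternatives. Of the 9 genes listed as cytosolic folding factors, 8 were tested and 7 rose, where 17.4% of all genes tested rose. Their median log2 fold change was 0.22. The exception was DNAJC7, the class C member with tetratricopeptide repeats that binds HSP70 and HSP90.

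**Figure D3:**
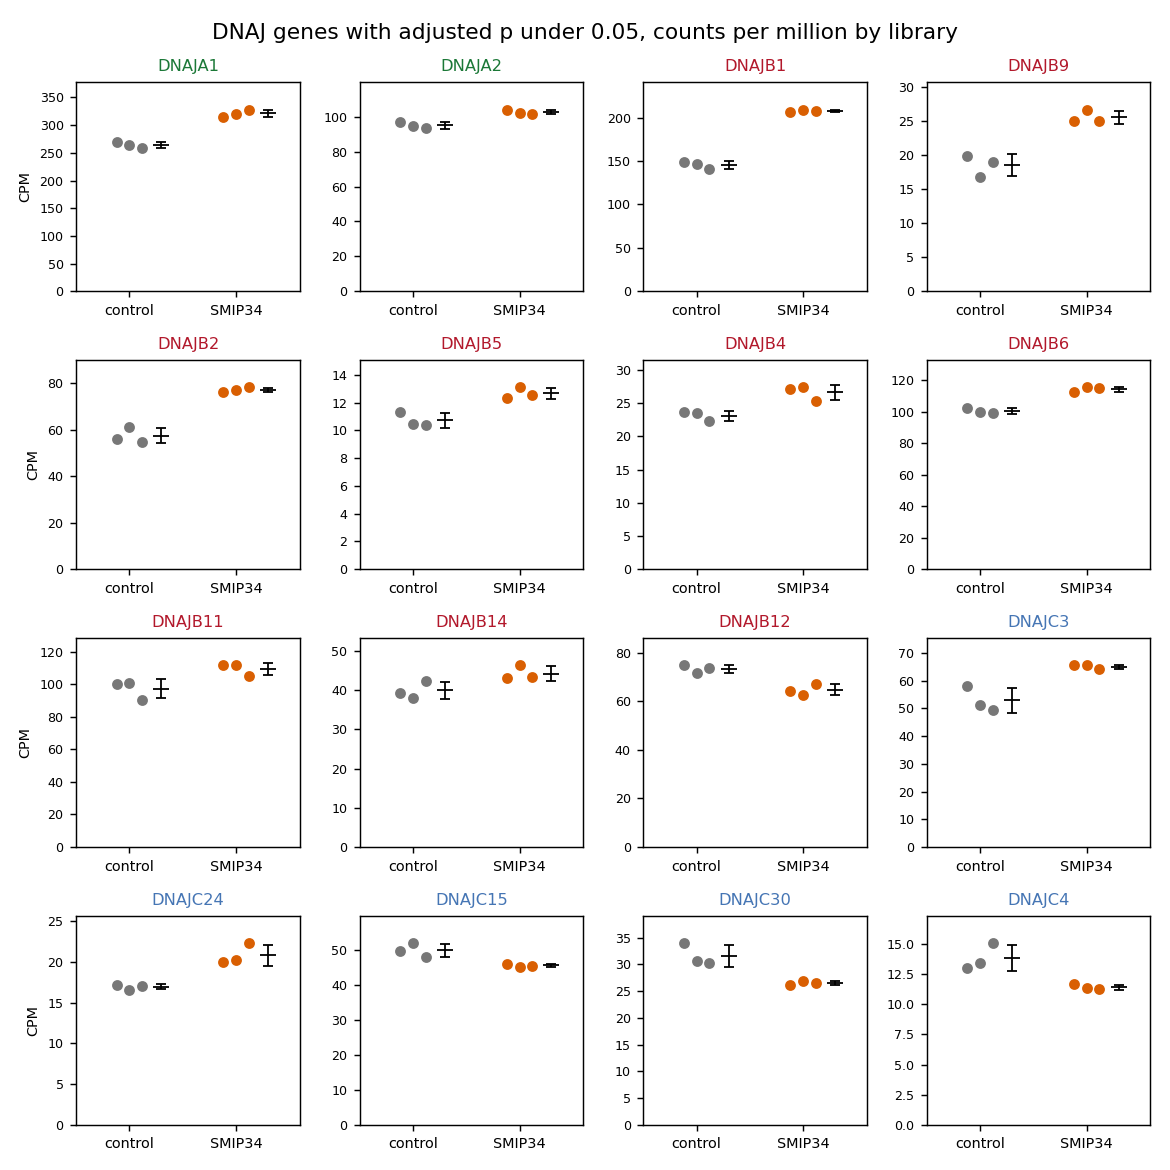
Level of each of the 16 members with an adjusted p-value under 0.05 in each library, in CPM on a linear axis from 0. The mean and SD of each group stand beside the points. Control and SMIP34 libraries do not overlap in any of the 16.

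Several members of the endoplasmic reticulum, where J-domain proteins serve the HSP70 family member HSPA5 (BiP), rose as well. DNAJB9 (ERdj4), which restrains the stress sensor IRE1, rose. Its levels were 19.8, 16.7 and 19.0 CPM in control and 25.0, 26.7 and 25.1 CPM in SMIP34 libraries, with no overlap. The 1.38-fold increase had a log2 fold change of 0.47 (SE 0.069, adjusted p = 7.15e-06; chr7:108210189-108215294), which became 0.52 without control replicate 1. DNAJB11 (ERdj3), an abundant luminal co-chaperone, had 100.3, 101 and 90.4 CPM in control and 112, 112 and 105 CPM in SMIP34 libraries (log2 fold change 0.17, SE 0.04, adjusted p = 0.00139; chr3:186288467-186303589). DNAJC3 (p58IPK), an inhibitor of the stress kinase PERK, had 58.1, 51.1 and 49.6 CPM in control and 65.5, 65.5 and 64.3 CPM in SMIP34 libraries. It rose 1.23-fold (log2 fold change 0.30, SE 0.048, adjusted p = 2.14e-05; chr13:96329393-96447243). DNAJC10 (ERdj5), a disulfide reductase, had 175, 172 and 178 CPM in control and 179.7, 189 and 182 CPM in SMIP34 libraries, which did not overlap but did not pass the test (log2 fold change 0.07, adjusted p = 0.0772). It passed with scaling by library size only and without control replicate 3.

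These 4 genes are the members known as targets of the unfolded protein response. Of them, 3 rose, where 17.4% of all genes tested rose, and their median log2 fold change was 0.24. Relative to DNAJB11, DNAJB9 stood at 0.198, 0.166 and 0.210 in control and 0.224, 0.239 and 0.238 in SMIP34 libraries, without overlap (exact permutation p = 0.1, the smallest possible). Since DNAJB9 did not overlap on its own, this p-value adds no separate support. The 2 related members that sit in the membrane of the endoplasmic reticulum with the J-domain in the cytosol went in opposite directions. DNAJB12 (chr10:74092588-74114907) had 74.8, 71.6 and 73.9 CPM in control and 64.3, 62.7 and 67.1 CPM in SMIP34 libraries, and was the only class B member to fall (log2 fold change -0.18, SE 0.04, adjusted p = 0.000913). DNAJB14 rose from 40.0 ± 2.22 to 44.3 ± 1.85 CPM (log2 fold change 0.15, adjusted p = 0.0279), a call lost under DESeq2 and on leaving out control replicate 1, control replicate 2 or SMIP34 replicate 2, with adjusted p-values up to 0.156. Of the 10 members listed for this compartment, 4 rose, 1 fell and 5 did not pass, with a median of 0.07. Of all genes tested, 17.4% rose and 17.2% fell. The ER stress response element, searched on both strands as CCAAT and CCACG with any 9 bases between them, was in 0.119% of all promoter windows and in no window of the 37 members. Its second form, ATTGG and CCACG with any 1 base between them, was in 0.0573% and likewise in no member.

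The 5 members listed as mitochondrial lay below 0, a pattern that depends on which members the list holds. Other assignments were not tried. All 5 had negative log2 fold changes, with a median of -0.10, against 49.5% of all genes tested above 0. Of the 5, 2 fell, where 17.2% of all genes tested fell. At an unadjusted p-value under 0.05 there were 3 lower and 0 higher (21.8% and 21.9% of all genes tested). DESeq2 called 1 lower and 0 higher (13.1% and 13.5% of all genes tested). DNAJC30, which associates with the respiratory chain, had 33.9, 30.7 and 30.2 CPM in control and 26.1, 26.9 and 26.6 CPM in SMIP34 libraries. Every SMIP34 value lay below every control value, and the level fell to 0.84 of control (log2 fold change -0.25, SE 0.059, adjusted p = 0.00151; chr7:73095248-73097781). DNAJC15, a protein of the inner membrane related to the import motor, had 49.7, 51.9 and 48.1 CPM in control and 46.1, 45.2 and 45.4 CPM in SMIP34 libraries (log2 fold change -0.13, SE 0.046, adjusted p = 0.0268; chr13:43597362-43683306). The call for DNAJC15 was lost under 7 of 15 alternatives, with adjusted p-values up to 0.145. DNAJC19, a subunit of the import motor, had a log2 fold change of -0.10 (adjusted p = 0.155), DNAJC11 one of -0.08 (adjusted p = 0.0913) and DNAJA3 one of -0.03.

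Among members not placed on a compartment list, DNAJC24 rose and DNAJC4 fell. DNAJC24, which takes part in making diphthamide on the translation factor eEF2, had 17.2, 16.6 and 17.0 CPM in control and 19.9, 20.2 and 22.3 CPM in SMIP34 libraries (log2 fold change 0.30, SE 0.071, adjusted p = 0.0019; chr11:31391377-31454382). DNAJC4 had 13.0, 13.4 and 15.1 CPM in control and 11.7, 11.3 and 11.3 CPM in SMIP34 libraries (log2 fold change -0.28, SE 0.086, adjusted p = 0.0134; chr11:63997753-64001753). Neither gene overlapped between the groups. The call for DNAJC4 was lost with offsets on exon length (adjusted p = 0.0736) and without control replicate 3 (adjusted p = 0.0833).

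The members of vesicle traffic and of the nucleus and ribosome did not pass the test. For the 3 tested vesicle members the median was 0.08, and 2 of them were higher at an unadjusted p-value under 0.05 (21.9% of all genes tested) while DESeq2 called 0. DNAJC6 (auxilin), which uncoats clathrin vesicles, had 7.24 ± 0.700 CPM in control and 8.74 ± 0.454 CPM in SMIP34 libraries (log2 fold change 0.27, adjusted p = 0.0521), and it passed with scaling by library size only and without control replicate 1. DNAJC13, an endosomal protein, and DNAJC5, the cysteine string protein, had log2 fold changes of 0.08 and 0.04. For the 5 members of the nucleus and ribosome the median was -0.03, with 1 higher and 1 lower at an unadjusted p-value under 0.05, where 21.9% and 21.8% of all genes tested were, and 0 called by DESeq2. Among these, DNAJC9, a chaperone of histones, had 114, 114 and 110.3 CPM in control and 108, 104 and 109 CPM in SMIP34 libraries, which did not overlap (log2 fold change -0.08, adjusted p = 0.0839; 0.0474 without control replicate 3). DNAJC8, a spliceosome protein, had 126, 118 and 115 CPM in control and 121, 118 and 123 CPM in SMIP34 libraries (log2 fold change 0.02, adjusted p = 0.762). DNAJC2, the ribosome-associated member, had a log2 fold change of 0.13 (adjusted p = 0.0913). It passed without control replicate 1, with scaling by library size only and with offsets on exon length. DNAJC21 was lower without overlap of the groups (log2 fold change -0.06, adjusted p = 0.241). It passed as lower with offsets on exon length (log2 fold change -0.11, adjusted p = 0.0214).

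The remaining class C members ranged in log2 fold change from -0.09 (DNAJC18) to 0.21 (DNAJC28), and none of them passed the test. DNAJC28 was also the least precise member, with a coefficient of variation of 26.0% in control against a median of 3.56% over the members. In all, 22 members had groups that did not overlap, 15 of them higher and 7 lower, where 22.6% of all genes tested were higher without overlap and 21.9% lower. The 16 called members are all among these 22.

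Per kilobase of exon, DNAJA1 was by far the most abundant member. In control libraries it stood at 171 ± 3.54 CPM per kb (SD, n = 3), followed by DNAJC9 at 78.5 ± 1.5, DNAJC7 at 71.4 ± 1.87, DNAJC8 at 67.8 ± 3.15 and DNAJB1 at 65.1 ± 1.94 CPM per kb. DNAJC9 lay apart from DNAJC7, whereas the control values of DNAJC7 and DNAJC8 overlapped, as did those of DNAJC8 and DNAJB1. DNAJB1 stood second in SMIP34 libraries at 93.0 ± 0.630 CPM per kb, behind DNAJA1 at 209 ± 4.18 CPM per kb. DNAJC7 had 160.1, 159 and 153 CPM in control and 148, 156 and 161 CPM in SMIP34 libraries (log2 fold change -0.02, adjusted p = 0.661). The lowest tested member was DNAJC27 at 0.843 CPM per kb. The class medians in control were 41.1, 16.8 and 13.2 CPM per kb for A, B and C, and of the 36 neighbouring pairs in the order of members 18 overlapped. Exon length differed little between classes, with medians of 2710, 2766 and 2776 bases, while over all genes the median log2 fold change went from -0.10 in the shortest to 0.12 in the longest of 10 groups by length.

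**Figure D4:**
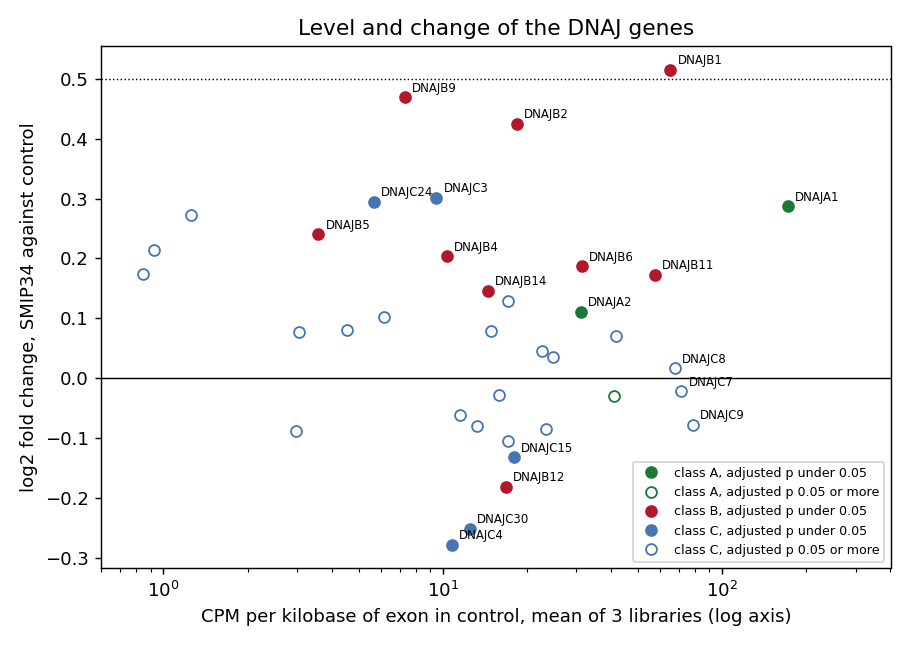
Control level of the 37 tested members in CPM per kb of exon on a log axis against their log2 fold change of SMIP34 against control, by class. DNAJA1 lies farthest right at 171 CPM per kb, and DNAJB1 is highest at a log2 fold change of 0.52.

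Some members were not detectable or too low to test. DNAJA4, DNAJB7, DNAJB8 and DNAJC5B had a count of 0 in all 6 libraries, which allows up to 3 counts or 0.136 to 0.153 CPM per library, for counting error only. DNAJB7 and DNAJB8 are testis genes, and DNAJA4 is known as heat-inducible. DNAJB13, a sperm and cilium protein, had 2, 6 and 4 counts in control and 7, 3 and 2 in SMIP34 libraries. DNAJC12 had 5, 5 and 10 counts against 2, 4 and 12, and DNAJC5G had counts in SMIP34 libraries only, of 0, 1 and 3, which is within that limit. The antisense row and both pseudogenes were at 0 throughout. The heat-inducible list of 4 thus had 3 tested genes, all of which rose, where 17.4% of all genes tested rose. Their median log2 fold change was 0.29.

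The HSP70 partners of the family and their exchange factors were examined in the same comparison. Of 12 HSP70 genes, 10 were tested and 7 rose, where 17.4% of all genes tested rose. Their median log2 fold change was 0.15. HSPA1A, the main heat-inducible HSP70, had the largest increase (log2 fold change 4.03). Its level was low and varied, with 0.670, 0.230 and 0.385 CPM in control and 10.2, 7.03 and 3.56 CPM in SMIP34 libraries. Its count is also uncertain, because the near-identical HSPA1B and alternative haplotypes share its reads. HSPA1B itself rose from 4.35 to 14.2 CPM (log2 fold change 1.70, adjusted p = 6.57e-10). HSPA6 rose from 1.18 to 11.7 CPM (log2 fold change 3.31, adjusted p = 2.79e-15), also from a low control level. Past the log2 fold limit of 0.5, 4 HSP70 genes were higher, where 1.44% of all genes tested were. HSPA2 had the lowest value, at -0.08 (adjusted p = 0.615). Of the partners, HSPA1B, HSPA6, HSPA8, HSPA5 and HSPA9 were chosen after their values were seen. HSPA8, the constitutive cytosolic HSP70, rose from 1424 to 1554 CPM (log2 fold change 0.13). HSPA5, the HSP70 of the endoplasmic reticulum, rose from 477 to 684 CPM (log2 fold change 0.52, adjusted p = 5.89e-15). HSPA9, which was more abundant in control than HSPA5, went from 609 to 630 CPM and did not pass the test (log2 fold change 0.05, adjusted p = 0.125). Of 13 nucleotide exchange factors, 6 rose and 1 fell (17.4% and 17.2% of all genes tested), with a median of 0.14. The extremes were BAG2 (log2 fold change 1.01, from 0.516 to 1.04 CPM, adjusted p = 0.0196) and BAG1 (log2 fold change -0.30, from 118 to 96.2 CPM, adjusted p = 1.52e-07).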

How the data were processed

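RNA was sequenced from 3 control and 3 SMIP34 libraries of HEC-1-A cells. Each deposited table holds estimated counts (fractional read counts per gene) that the authors made on the UCSC hg19 annotation, without normalization. The file headers name featureCounts v1.5.0-p1, counting by strand with a minimum mapping quality of 2 and with multiply mapped or multiply assigned reads divided into fractions. The submitters' processing notes name HISAT2, whereas the methods of the study name tophat2 and HTSeq. Between 6.31 and 7.43% of the values per library were not whole. Among the tested coding members, 16 had such a value in at most 3 libraries.

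Counts were rounded to whole numbers, filtered with filterByExpr (minimum count 10), scaled by TMM (factors from 0.988 to 1.01) and compared by edgeR 4.0.16 (R 4.3.3), using the newer form of its quasi-likelihood test and Benjamini-Hochberg adjustment over 13408 genes. Standard errors come from the F statistic. Alternatives were DESeq2 1.42.0, limma 3.58.1 (voom), other scalings, no filter, the legacy quasi-likelihood method, rounding down, offsets from a loess fit (span 0.3) on exon length, a replicate block and leaving out each library. The procedure was tested on simulated data.

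The members and gene lists were chosen with earlier results of these data known. Named with values per library are members past the log2 fold limit of 0.5, the 3 largest increases and decreases of each class among called members, the 5 highest members per kilobase of exon in control, and the heat-inducible and unfolded protein response lists. Partner genes are given by counts and extremes, and HSPA1B, HSPA6, HSPA8, HSPA5 and HSPA9 were added with their values known. Promoter windows were read from GRCh37 at the starts of the deposited hg19 annotation. DNAJC25 shares exons with the read-through row on the same strand, so both counts are uncertain. In 9 members an exon overlaps a gene on the opposite strand, which counting by strand separates. Figures were drawn with matplotlib 3.10.9.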

Additional observations from a re-analysis of the deposited data

How the results depend on the processing

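With 1 library left out, the members that rose numbered 9 to 13, against 12 in the reported fit. Of all genes tested, 13.9% to 17.4% rose, against 17.4%. Members that rose numbered 10 by DESeq2 (13.5% of all genes), 13 with offsets on exon length (16.7%) and 16 with scaling by library size only (20.6%). Under the 15 alternatives, members that fell numbered 3 to 5, against 4, where 11.7% to 17.2% of all genes fell. Members past the fold limit numbered 0 to 2 with 1 library left out, being 0 without control replicate 3 and 2 without control replicate 1. The class B median was 0.24 with offsets on exon length and 0.18 to 0.24 with 1 library left out, and the class C median was 0.0093 to 0.041, lowest without control replicate 2. Of the 16 called members, 10 were called under all 15 alternatives and 6 lost the call in at least 1, with no change of direction. Among members not called, the sign turned for DNAJC17 (0.055) and DNAJC7 (0.020) with offsets on exon length and with 1 library left out for DNAJC7 (-0.049 to 0.011), DNAJC22 (-0.0087 to 0.19) and DNAJC8 (-0.0091 to 0.054). The cause was not tested. With the replicate block, 12 rose and 4 fell (16.8% and 16.3% of all genes), and the class medians were 0.11, 0.20 and 0.036. Deviations of same-numbered libraries correlated at -0.028, 0.033 and -0.011, and the numbers were treated as names only. Depth limits the low members: a count of 0 allows up to 0.153 CPM.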

Other observations

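Values of J-domain genes that carry other symbols are given for 3 genes. GAK, the widely expressed auxilin that uncoats clathrin vesicles, rose from 114 to 123 CPM (log2 fold change 0.12, adjusted p = 0.0109). SEC63, which recruits HSPA5 to the translocon, had a log2 fold change of 0.05 (adjusted p = 0.207), and HSCB, the mitochondrial co-chaperone of iron-sulfur cluster assembly, one of -0.01 (adjusted p = 0.923). The read-through row DNAJC25-GNG10 stood at 70.4 ± 0.433 CPM in control and 68.5 ± 1.52 CPM in SMIP34 libraries (SD, n = 3; log2 fold change -0.04, adjusted p = 0.454), and DNAJC25 itself had a log2 fold change of 0.10 (adjusted p = 0.297).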
